A study of Rattus norvegicus with 44 samples.

Results

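Gsta3 and Gstm5 are glutathione transferase genes, and they are described here across all groups of a rat liver array series. They were chosen by earlier results of these data, in which both were among the largest rises after 336 h of the compound R1 at 20 mg/kg/day. Every probe set whose only annotated symbol was Gsta3 or Gstm5 was taken. This gave 5 of 8740 probe sets and 2 of 4736 named genes. Gsta3 was measured by 3 probe sets (S82820mRNA_s_at, S72506_s_at and rc_AA945082_at) and Gstm5 by 2 (U86635_g_at and U86635_at). The values that chose them belong to study 2. Results of these 2 genes with study 2 arrays are therefore given as a description without a p. For other genes in study 2, whether they were called is given as a description, which supports nothing about the members. Studies 1, 3 and 4 used other arrays, although their earlier results were also known.

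Liver RNA came from male Wistar rats, 8 weeks old, dosed by gavage once a day with R1, R2 or a citric acid buffer as vehicle. The labels give R1 and R2 by code name only. Study 1 (24 h) held 3 vehicle arrays, 4 of R1 at 10 mg/kg/day, 3 at 30 and 3 at 100. Study 2 (336 h) held 4 vehicle arrays, 5 of R1 at 20 mg/kg/day and 4 at 100. Study 3 (336 h) held 5 vehicle arrays and 4 of R1 at 30 mg/kg/day, and study 4 (24 h) held 4 vehicle arrays and 5 of R2 at 300 mg/kg/day. The labels do not say whether the 44 arrays came from separate animals, so the spread behind each p-value is that of these samples and may be technical. The doses within study 1 share their vehicle arrays, as do both doses of study 2. Within a group, arrays correlated at 0.924 to 0.974, and none looked like a repeat of another. All 8 hepatocyte markers were on the array, and their summed signal was between 30880 and 39500.

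Glutathione transferases join the tripeptide glutathione to electrophilic molecules, which makes drugs, carcinogens and products of lipid oxidation more soluble and ready for export. The cytosolic enzymes work as dimers of subunits sorted into classes, of which alpha and mu are abundant in rat liver, while the pi class is scarce in normal adult hepatocytes. Gsta3 encodes an alpha-class subunit. The gene measured here carries the synonyms Yc2 and Gsta5 in RefSeq, and the Yc2 subunit is known for conjugating the epoxide of aflatoxin B1 and for its induction in rat liver by antioxidants. Gstm5 encodes a mu-class subunit, with the RefSeq synonym Gstm3; mu-class subunits of this kind are best known outside the liver, in testis and brain. Many transferase genes are switched on by the transcription factor NRF2 through antioxidant response elements, and by the nuclear receptors CAR and PXR, which sense foreign compounds.

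The promoters are shown because the means of both genes were above the vehicle of the same study in each R1 group after 336 h. Each window is the 250 bases before the RefSeq start site on the plus strand of GRCr8, 5′ to 3′, at chr9:31154739-31154988 for Gsta3 (gene ID 494500) and at chr2:198219519-198219768 for Gstm5 (gene ID 64352). Capitals mark matches to the antioxidant response element core TGACNNNGC and to the xenobiotic response element core GCGTG, searched on both strands.
Gsta3: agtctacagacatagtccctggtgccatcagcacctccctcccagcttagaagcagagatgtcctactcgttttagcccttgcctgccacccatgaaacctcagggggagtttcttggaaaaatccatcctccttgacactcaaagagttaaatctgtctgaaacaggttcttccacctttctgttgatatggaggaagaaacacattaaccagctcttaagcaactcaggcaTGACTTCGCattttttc
Gstm5: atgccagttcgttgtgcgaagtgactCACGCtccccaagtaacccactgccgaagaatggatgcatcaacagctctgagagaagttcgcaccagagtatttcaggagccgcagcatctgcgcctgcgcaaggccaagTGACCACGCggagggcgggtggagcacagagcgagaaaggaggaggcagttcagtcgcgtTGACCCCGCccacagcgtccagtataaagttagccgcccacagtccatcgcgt
The Gsta3 window held 1 antioxidant response element core, TGACTTCGC, which ended 9 bases before the start site, and no GCGTG. The Gstm5 window held 2 cores of the antioxidant type, TGACCACGC at -113 to -105 and TGACCCCGC at -53 to -45 from the start site. It also held GCGTG on the minus strand (read as CACGC) at -224 to -220 and at -109 to -105, where it lies inside the first of those cores. Of 33465 promoter windows of this length, 10.1% held TGACNNNGC and 25.9% held GCGTG. The nuclear receptor motif AGTTCA (12.2% of windows) and the TATA box TATAAA (12.9%) were found in the Gstm5 window and not in that of Gsta3. AGGTCA (14.1%) was in neither, and GATA (55.9%) only in that of Gsta3. RefSeq lists a further Gsta3 start, whose window at chr9:31166793-31167042 held GCGTG and AGTTCA and no TGACNNNGC. A match describes letters in a window and is not a measured binding site.

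After 336 h of R1, the signal of Gsta3 was far above that of the vehicle arrays at each dose given, with mean signals 12.1 to 27.5 times those of vehicle by its brightest probe set and 7.11 to 24.3 times by its dimmest. Signals are MAS5 intensities. Log2 fold changes are ± SE from limma on log2(signal + 2.89), which understates the change of dim genes. In study 2, the vehicle arrays read 60.6, 40.4, 31.0 and 75.5 with S82820mRNA_s_at, the probe set with the highest mean and used for the gene below. The arrays at 20 mg/kg/day read 1379.9, 1078.5, 1548, 1542.7 and 1041.3, and those at 100 mg/kg/day read 1059.9, 1628.2, 1580.2 and 1426.7. Every treated array was above every vehicle array, and the doses overlapped. The log2 fold change was 4.65 ± 0.38 at 20 mg/kg/day, a ratio of mean signals of 25.4, and 4.76 ± 0.40 at 100 mg/kg/day, a ratio of 27.5. The doses differed by 0.11 ± 0.38 (95% confidence interval -0.65 to 0.88). In study 2, a gene counted as called below 0.05 after Benjamini-Hochberg adjustment, and of 3696 genes tested 2.52% were called higher and 1.76% lower at 20 mg/kg/day, and 4.95% and 5.01% at 100. These comparisons share the vehicle arrays and include the one that chose the genes.

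Study 3 gave R1 for the same time at 30 mg/kg/day, with its own vehicle. Its vehicle arrays read 123.4, 122.6, 195.8, 134.4 and 64.7, and its R1 arrays read 1490.2, 1490.2, 2077.1 and 1166. Every R1 array was above every vehicle array. The log2 fold change of Gsta3 was 3.62 ± 0.38 (limma, adjusted p = 1.13e-09), a ratio of means of 12.1, where 4.98% of genes were called higher and 5.93% lower. The vehicle level of Gsta3 was itself higher in study 3 than in study 2, by 1.25 ± 0.38 on the log2 scale with overlapping arrays, while the treated levels of both studies overlapped with this probe set. The dimmer Gsta3 probe sets gave 3.17 ± 0.40 for S72506_s_at (adjusted p = 7.6e-08) and 2.47 ± 0.40 for rc_AA945082_at (adjusted p = 1.1e-05). With S72506_s_at the R1 arrays of study 3 read 146, 140, 248 and 136 against vehicle arrays of 10.2 to 26.9. All 3 probe sets separated R1 from vehicle arrays without overlap in each 336 h group.

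**Figure D1:**
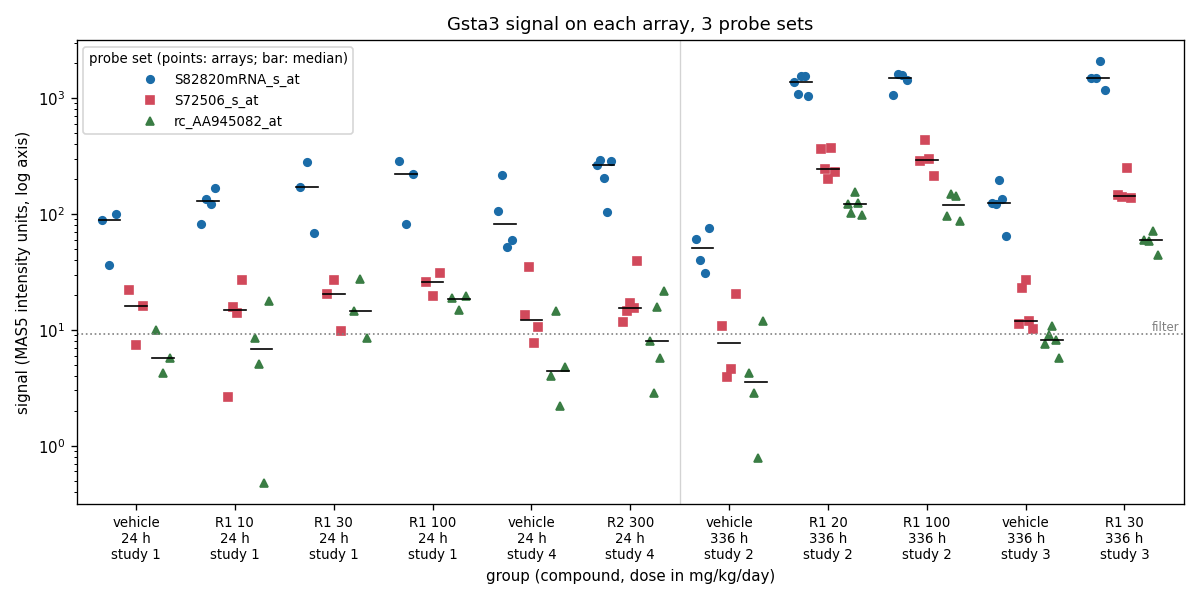
Signal of Gsta3 on each of the 44 arrays (log axis, MAS5 intensity units) by group, with 24 h groups on the left and 336 h groups on the right; points are arrays of 3 probe sets, black bars are group medians and the dotted line is the filter of 9.17. With all 3 probe sets, the arrays of the 3 groups given R1 for 336 h lie above all vehicle arrays of their study, between 1041.3 and 2077.1 for S82820mRNA_s_at.

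Levels of cell type markers also differed in these groups. Of 8 genes listed as bile duct markers, 6 were on the array, and their summed signal was 534.9 to 641.6 in the vehicle arrays of study 3 and 1282 to 1587 with R1. In study 2 it was 879.5 to 1222 with vehicle, 1271 to 2029 at 20 mg/kg/day and 933.9 to 1532 at 100, where it overlapped vehicle. At 24 h the sum was above vehicle without overlap with R1 at 100 mg/kg/day (837.3 to 1012 against 495.3 to 610.5). The same held with R2 (920.9 to 1300 against 434.4 to 809). Krt18 made up most of these sums, with group means of 506.9 to 1528, so they cannot be read as signal of bile duct cells alone. Without it, the other 5 summed to 51.6 to 116.1 with vehicle and 129.6 to 224.7 with R1 in study 3. In study 2 they summed to 63.6 to 102.4 with vehicle. They overlapped this at 20 mg/kg/day (89.89 to 142.8) but not at 100 (105 to 201.1). At 24 h these 5 overlapped vehicle with R1 at 100 mg/kg/day (52.44 to 65.26 against 46.25 to 69.78). With R2 they overlapped vehicle only at the edge (82.62 to 120.2 against 43.32 to 82.9). At 24 h, Epcam and Krt18 were called higher with R2, and Krt18 with R1 at 100 mg/kg/day. Epcam read 34.78 to 73.14 with R2 against 13.99 to 31.7 with vehicle. Epcam, Krt18 and Cd24 were called higher in study 3. In study 2, Epcam and Krt18 were called higher at 20 mg/kg/day and Epcam at 100. Krt19, a defining keratin of these cells, was called in neither study. In study 3 its means were 13.6 (SD 6.54, n = 5) with vehicle and 14.7 (SD 2.58, n = 4) with R1. In study 2 they were 18.6 with vehicle, 14.0 at 20 mg/kg/day and 22.0 at 100. Spp1 was dim, as was Cldn7. Means of Spp1 in study 2 were 9.49 with vehicle, 4.92 at 20 mg/kg/day and 4.89 at 100. In study 3 they were 5.84 with vehicle and 5.90 with R1. The hepatocyte sum was 37690 to 38740 with vehicle in study 2, 30960 to 37410 at 20 mg/kg/day and 31020 to 36240 at 100, and in study 3 it was 35200 to 38770 with vehicle and 30880 to 36380 with R1. The part of these cell types in the rise of Gsta3 and Gstm5 was not tested, and in whole liver more cells of a type and more RNA per cell cannot be told apart. Of the Kupffer cell markers, Clec4f was called lower in all 3 of these groups. In study 2 the sums of stellate cell and fibroblast markers (517 to 727.4 with vehicle, 355.7 to 421.5 at 20 mg/kg/day, 291.7 to 480 at 100) and of endothelial markers (141 to 174.9, 95.98 to 133 and 77.17 to 127.7) were lower with R1 without overlap. In study 3 both overlapped vehicle, at 207.7 to 304.2 against 270.4 to 856 and at 58.1 to 89.3 against 78.5 to 159.1. Calls of single genes did not follow these sums. In study 3, Col1a1, Col3a1 and the endothelial marker Kdr were called lower. In study 2, no stellate cell or fibroblast marker was called at either dose, and Kdr was called lower at 100 mg/kg/day.

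At 24 h of R1, Gsta3 was not called at any dose. In study 1 the vehicle arrays read 88.4, 36.5 and 99.5. The arrays at 10 mg/kg/day of R1 read 81.3, 135.9, 121.6 and 167.7, those at 30 read 172.1, 282.8 and 68.9, and those at 100 read 287.3, 81.4 and 222.2. Each dose had an array within the range of the vehicle arrays. Gsta3 stood 0.81 ± 0.43 above vehicle on the log2 scale at 10 mg/kg/day (limma, adjusted p = 0.536), 1.10 ± 0.46 at 30 (adjusted p = 0.333) and 1.30 ± 0.46 at 100 (adjusted p = 0.0846). Without replicate 2 at 100 mg/kg/day, the array of 81.4, the last of these became 1.84 with an adjusted p of 0.0161, while it became 0.87 (adjusted p = 0.455) without vehicle replicate 2 and 0.94 (adjusted p = 0.412) without replicate 1 at 100 mg/kg/day. The dimmer probe sets gave 0.71 ± 0.48 (S72506_s_at, adjusted p = 0.504) and 1.15 ± 0.48 (rc_AA945082_at, adjusted p = 0.174) at 100 mg/kg/day, and at 10 mg/kg/day both were just below 0, at -0.17 and -0.06. With rc_AA945082_at the arrays at 100 mg/kg/day, 18.6, 14.9 and 19.7, were all above the vehicle arrays of 10.0, 4.27 and 5.76. Over all genes, 0.758% were called higher and 0.271% lower at 10 mg/kg/day, 1.14% and 0.189% at 30, and 3.19% and 2.79% at 100.

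Gsta3 at 100 mg/kg/day was not separated from 10 mg/kg/day at 24 h, with a difference of 0.49 ± 0.43 (95% confidence interval -0.38 to 1.36, limma, adjusted p = 0.663), where 4.09% of genes were called either way. The effect of 30 mg/kg/day was larger at 336 h than at 24 h by 2.53 ± 0.60 (adjusted p = 0.0194) with S82820mRNA_s_at, and by 2.89 ± 0.62 (adjusted p = 0.0088) with S72506_s_at. It was 1.49 ± 0.62 with rc_AA945082_at (adjusted p = 0.378). Here 0.947% of genes were called either way. The 2 times come from different studies, so time and study cannot be told apart. For S82820mRNA_s_at the call was lost without vehicle replicate 1 (2.35, adjusted p = 0.0859) or 3 (2.27, adjusted p = 0.0842) of study 1, without its 30 mg/kg/day replicate 3 (1.98, adjusted p = 0.125), or without 30 mg/kg/day replicate 3 of study 3 (2.38, adjusted p = 0.0529). For 100 mg/kg/day, the effect at 336 h exceeded that at 24 h by 3.46 ± 0.61, given as a description since study 2 enters it.

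With R2 at 300 mg/kg/day, Gsta3 was called higher by 1 of its 3 probe sets. With S82820mRNA_s_at the vehicle arrays of study 4 read 105.7, 217.2, 51.7 and 59.5, and the R2 arrays read 263.9, 290.8, 202.6, 104.1 and 284.4. The groups overlapped, and 3 of 5 R2 arrays were above all vehicle arrays. The log2 fold change was 1.20 ± 0.38 (limma, adjusted p = 0.0235), where 6.63% of genes were called higher and 8.79% lower. The other probe sets gave 0.27 ± 0.40 (S72506_s_at, adjusted p = 0.721) and 0.53 ± 0.40 (rc_AA945082_at, adjusted p = 0.414), and the mean over all 3 gave 0.67 (adjusted p = 0.194). The call was also lost without vehicle replicate 3 (0.93, adjusted p = 0.13) or 4 (1.00, adjusted p = 0.109), or without R2 replicate 1 (1.13, adjusted p = 0.0569), 2 (1.09, adjusted p = 0.0675) or 5 (1.10, adjusted p = 0.0539), and with study 4 fitted alone (adjusted p = 0.0711). Beside these values stands the 24 h change of 1.30 ± 0.46 with R1 at 100 mg/kg/day; the doses of the compounds differ, and no comparison between them was made. Vehicle arrays of studies 4 and 1 differed in Gsta3 by 0.41 ± 0.43 (adjusted p = 0.664), where 4.65% of genes were called either way.

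The highest levels of Gstm5 came after 336 h of R1 at 20 mg/kg/day, and its mean signal was at most 18.7 in every other group. In study 2 the vehicle arrays read 3.77, 1.55, 1.67 and 12.7 with U86635_g_at, the brighter probe set. Those at 20 mg/kg/day read 33.7, 30.4, 44.9, 49.2 and 38.4, and those at 100 read 13.9, 5.43, 25.4 and 16.2. All 5 arrays at 20 mg/kg/day were above all other arrays of the study, while at 100 mg/kg/day 1 of 4 lay within the vehicle range. Gstm5 was above vehicle by 2.62 ± 0.36 on the log2 scale at 20 mg/kg/day and 1.29 ± 0.38 at 100. The level at 100 mg/kg/day was lower than at 20 by 1.33 ± 0.36 on the log2 scale, with no overlap. U86635_at gave 2.91 ± 0.45 at 20 mg/kg/day, 1.33 ± 0.48 at 100 and -1.59 ± 0.45 between them, with 1 array at 100 mg/kg/day (41.3) among those at 20 (30.6 to 47.4). For Gsta3 the same doses overlapped.

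In study 3 the vehicle arrays of Gstm5 read 2.30, 1.39, 1.46, 1.02 and 1.98, and the arrays at 30 mg/kg/day of R1 read 10.3, 22.3, 36.7 and 5.46. The groups did not overlap, and the R1 arrays spread widely. The log2 fold change was 2.02 ± 0.36 (limma, adjusted p = 6.49e-05). All 5 vehicle arrays were below the offset of 2.89, which is the percentile 20 of all signals, so no ratio of signals is given. With a larger offset the log2 change was 1.23 (adjusted p = 0.000245). U86635_at gave 1.37 ± 0.45 (adjusted p = 0.0412), also with no overlap: the vehicle arrays read 1.36 to 2.43 and the R1 arrays 7.57, 8.80, 28.2 and 3.78. The effect of 30 mg/kg/day on Gstm5 at 336 h exceeded that at 24 h by 1.64 ± 0.57 (adjusted p = 0.228), and by 0.26 ± 0.72 (adjusted p = 0.94) with U86635_at, so a difference between the times was not detectable.

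At 24 h Gstm5 was not called with R1 or R2. In study 1 the vehicle arrays read 6.29, 6.68 and 10.4, those at 10 mg/kg/day read 13.1, 11.6, 13.1 and 5.77, those at 30 read 10.4, 9.91 and 12.3, and those at 100 read 5.61, 9.86 and 2.40. These ranges overlapped at each dose. The difference from vehicle was 0.34 ± 0.41 on the log2 scale at 10 mg/kg/day (limma, adjusted p = 0.852), 0.38 ± 0.44 at 30 (adjusted p = 0.848) and -0.34 ± 0.44 at 100 (adjusted p = 0.777), and 100 against 10 mg/kg/day gave -0.69 ± 0.41 (adjusted p = 0.437). U86635_at gave 0.40 ± 0.52 (adjusted p = 0.878), 1.11 ± 0.55 (adjusted p = 0.478) and 0.26 ± 0.55 (adjusted p = 0.885) at 10, 30 and 100 mg/kg/day, so the sign at 100 differed between the probe sets. In study 4 the vehicle arrays read 20.1, 18.1, 17.9 and 13.9 and the R2 arrays read 5.31, 8.83, 14.3, 11.6 and 18.2. The vehicle arrays were thus brighter than most R2 arrays, with a change of -0.55 ± 0.36 (adjusted p = 0.334), while U86635_at gave 0.79 ± 0.45 (adjusted p = 0.259) and the mean over both probe sets 0.12 (adjusted p = 0.856). The direction with R2 therefore differed between the probe sets. All 4 vehicle arrays of study 4 were above those of study 1, by 0.94 ± 0.41 on the log2 scale (adjusted p = 0.179).

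**Figure D2:**
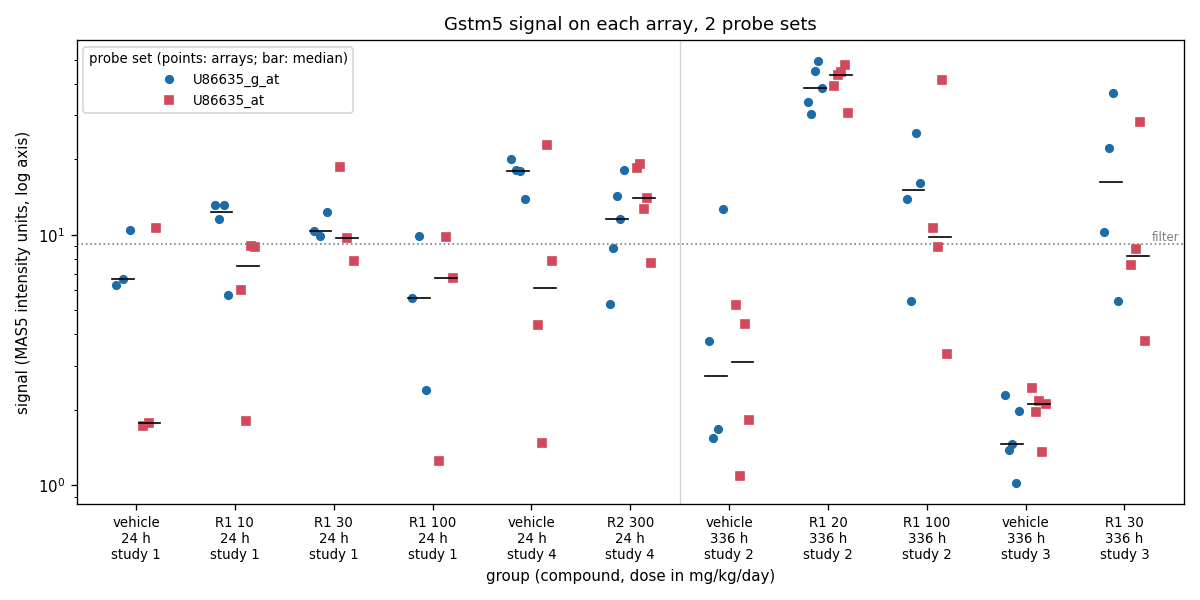
Signal of Gstm5 on each of the 44 arrays (log axis, MAS5 intensity units) by group, drawn as for Gsta3, with 2 probe sets and the filter of 9.17 as a dotted line. The 5 arrays given R1 at 20 mg/kg/day for 336 h lie between 30.4 and 49.2 with U86635_g_at, and all 5 vehicle arrays of study 3 lie at or below 2.30.

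The order of the group levels differed between the genes. For Gsta3 the 3 groups given R1 for 336 h came first, with mean log2 levels of 10.58 ± 0.34 (SD, n = 4) at 30 mg/kg/day, 10.46 ± 0.28 (n = 4) at 100 and 10.35 ± 0.28 (n = 5) at 20. These neighbours overlapped, whereas with rc_AA945082_at the arrays at 30 mg/kg/day (44.6 to 71.8) were all below those at 20 and 100 (87.2 to 153). With S82820mRNA_s_at the next group, R2 at 300 mg/kg/day, was 2.58 below on the log2 scale with no overlap (7.77 ± 0.61, n = 5), and from there down to the vehicle of study 2 (5.70 ± 0.54, n = 4) every pair of neighbours overlapped. For Gstm5, with U86635_g_at, only R1 at 20 mg/kg/day for 336 h (5.38 ± 0.27, n = 5) stood clear of its neighbour. That neighbour was the vehicle of study 4 (4.34 ± 0.19, n = 4), which lay above R1 at 30 mg/kg/day (4.18 ± 0.99, n = 4) and at 100 (4.05 ± 0.73, n = 4) for 336 h. With U86635_at the order was the other way. There the vehicle of study 4 (3.27 ± 1.08) lay below R1 at 100 (3.86 ± 1.18) and at 30 mg/kg/day (3.66 ± 0.94) for 336 h. The lowest group with U86635_g_at was the vehicle of study 3 (2.17 ± 0.16, n = 5). Every neighbouring pair below the first overlapped.

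**Figure D3:**
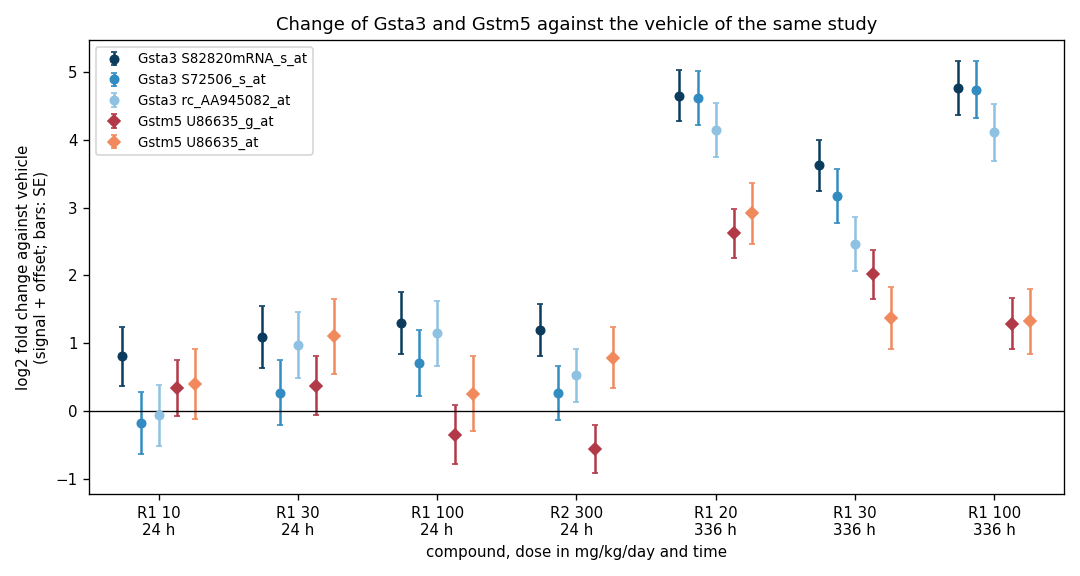
Log2 fold change (points) and SE (bars) of the 5 probe sets against the vehicle of the same study, by compound, dose and time. All 5 lie between 1.29 and 4.76 in the 336 h groups; at 24 h they lie between -0.55 and 1.30.

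The probe sets of Gsta3 followed each other closely, with correlations of 0.958 to 0.985 over the 11 group means, against 0.888 for the pair of Gstm5. Between the genes the correlation was 0.634 over group means and 0.56 over the 44 arrays. After removal of the group means it was 0.076 over arrays, which share their scaling. The genes most like Gsta3 over the group means were Abcc3 (0.97), an efflux pump of conjugates into blood, Bex3 (0.959), Ggt1 (0.95), which cleaves extracellular glutathione and its conjugates, Pcp4 (0.941) and Mgst2 (0.941), a microsomal transferase. Over single arrays these 5 gave 0.825 to 0.906. For Gstm5 they were Col4a5 (0.809), Ccdc124 (0.797), Prlhr (0.793), Ivns1abp (0.782) and Oxnad1 (0.764), with 0.126 to 0.493 over single arrays. These values describe 11 points, and the groups and their arrays are shared by both genes.

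Among the other glutathione transferases, 14 of 27 listed genes were on the array and tested. At 24 h of R1 none of the 14 was called by limma at any dose, while 2, 4 and 6 of them had an unadjusted p under 0.05 at 10, 30 and 100 mg/kg/day. After 336 h, 5 were called higher and 1 lower at 30 mg/kg/day, with a median of -0.04 over the 14 against -0.01 over all genes. In study 2, 6 were higher and 0 lower at 20 mg/kg/day, with a median of 0.34, and 7 higher and 1 lower at 100, with a median of 0.51. Of all genes, 4.98% were called higher and 5.93% lower at 30 mg/kg/day, 2.52% and 1.76% at 20, and 4.95% and 5.01% at 100. At 24 h of R1 the shares called higher were 0.758%, 1.14% and 3.19% at 10, 30 and 100 mg/kg/day, and those lower 0.271%, 0.189% and 2.79%. The pi-class gene Gstp1, a marker of altered hepatocyte foci in the rat, rose most: 2.63 ± 0.23 at 20 mg/kg/day, 3.71 ± 0.23 at 30 and 3.02 ± 0.25 at 100. Gsta4, which conjugates the lipid product 4-hydroxynonenal, rose by 1.30 ± 0.17, 1.33 ± 0.17 and 1.79 ± 0.18 in the same order. The major mu-class genes Gstm1 (1.14, 1.08 and 1.04) and Gstm2 (1.07, 1.19 and 1.32) rose by less, and Mgst2 rose by 1.40, 0.81 and 1.59. Gstm7 fell by 1.32 at 30 mg/kg/day. Gsta1, another alpha-class gene, rose by 0.65 and 0.67 in study 2, called by 1 of its 3 probe sets at each dose. It stood at 0.47 in study 3 without a call.

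With R2, 0 of the 14 were called higher by limma and 5 lower, with 10 at an unadjusted p under 0.05 and a median of -0.32 against -0.07 over all genes, of which 6.63% were called higher and 8.79% lower. Mgst3 fell by 2.03, Gstm7 by 1.03, Gsta4 by 0.83 (called by 1 of its 2 probe sets), Gstt1 by 0.76 and Mgst1 by 0.40. These counts use the brightest probe set of each gene, and others differed. Gstm1 (0.45, limma, adjusted p = 0.0617) was called higher by 2 of its 3 probe sets. Gstt2 (-0.59, adjusted p = 0.0577) was called lower by 1 of its 2. The highest group mean of Gsta3 (1556, R1 at 30 mg/kg/day in study 3) was 30.0 times its lowest (51.87, vehicle of study 2). The same ratio was 25.7 for Gstp1 and 1.54 to 6.84 for the other 13. Such ratios can set groups of different studies against each other. Study 2 values chose Gsta3, so its place among these ratios is a description only. For Gstm5 no such ratio is given, since its lowest group mean of 1.63 was below the offset. The alpha-class genes are close in sequence, and the part of each in a signal cannot be told apart in these files. The probe set K00136mRNA_at, annotated to both Gsta5 and Gsta2, rose from a mean of 791.7 to 3913 in study 2 at 20 mg/kg/day. In study 3 it rose from 1661 to 5859. A dimmer probe set with the same annotation, rc_AI235747_at, changed less. Its means were 35.39 and 56.63 in these groups of study 2, and 47.92 and 60.55 in study 3. The Gsta1 probe sets had ranges of 3.03 to 3.33 over the groups.

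**Figure D4:**
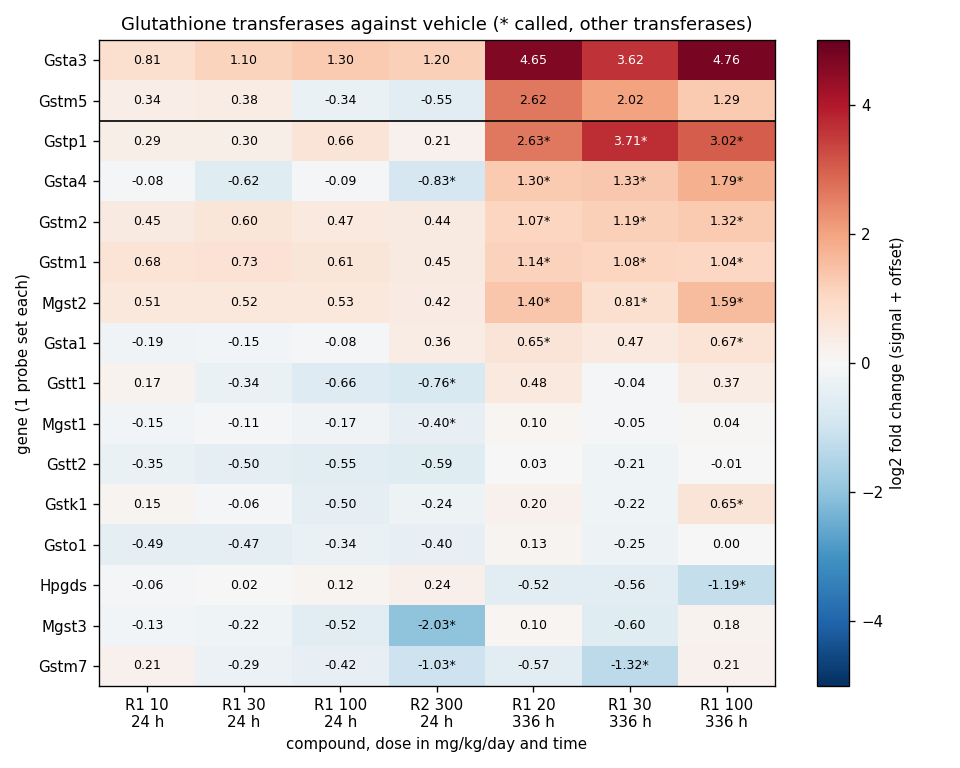
Log2 fold change against vehicle of Gsta3, Gstm5 and the 14 other transferases tested (rows, 1 probe set each) by compound, dose and time (columns), with an asterisk on called values of the other transferases. Gsta3 has the highest value in the 336 h columns at 20 and 100 mg/kg/day, Gstp1 at 30 mg/kg/day (3.71 against 3.62), and the values at 24 h lie between -2.03 and 1.30.

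Genes that supply and use glutathione around these enzymes were also measured. Of 7 tested genes of glutathione supply and recycling, 2 were called higher at 10 and at 30 mg/kg/day after 24 h, and both were the same: Gclc, the catalytic subunit of the first step of glutathione synthesis (1.21 ± 0.24 and 1.40 ± 0.25), and Gsr, which regenerates it (1.20 ± 0.23 and 1.40 ± 0.24). Over all genes the share called higher was 0.758% and 1.14% at these doses, and Gsta3 and Gstm5 were not called there. At 100 mg/kg/day 4 were higher and 1 lower (3.19% and 2.79% of all genes), and R2 gave the same counts (6.63% and 8.79%). After 336 h, 1 was higher and 1 lower at 20 mg/kg/day, 3 and 1 at 30 and 3 and 0 at 100. The largest rise was that of Me1, by 1.84 ± 0.35, 2.72 ± 0.35 and 1.77 ± 0.37 at 20, 30 and 100 mg/kg/day. Gsr was called higher at 30 (1.59 ± 0.20) and 100 mg/kg/day (1.12 ± 0.21), and Gclc was called at none of these doses. The shares of all genes called higher and lower were 2.52% and 1.76% at 20 mg/kg/day, 4.98% and 5.93% at 30, and 4.95% and 5.01% at 100. Neither Gclc nor Gsr was called for a difference of effect between the times at 30 or 100 mg/kg/day. Of 5 tested glutathione peroxidases, Gpx2, which reduces hydroperoxides, rose by 3.05 ± 0.39, 4.18 ± 0.39 and 2.75 ± 0.41 after 336 h at 20, 30 and 100 mg/kg/day, and at 24 h by 1.64 ± 0.48 with R1 at 100 mg/kg/day and by 2.43 ± 0.39 with R2. Gpx1 fell by 0.67 with R2.

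Of 10 tested genes of conjugate export and breakdown, 3 were higher at 20 and at 100 mg/kg/day after 336 h, and 4 were higher and 1 lower at 30. Of all genes, 2.52%, 4.95% and 4.98% were called higher at 20, 100 and 30 mg/kg/day, and 1.76%, 5.01% and 5.93% lower. At 24 h the counts were 0 higher at 10 mg/kg/day of R1 (1 at an unadjusted p under 0.05 by limma), 1 at 30 (Abcc2) and 2 at 100 (Abcc2 and Abcc3), with 0 lower, and 3 higher and 3 lower with R2. In these 24 h comparisons 0.758%, 1.14%, 3.19% and 6.63% of all genes were called higher, and 0.271%, 0.189%, 2.79% and 8.79% lower. Ggt1 rose by 3.91 ± 0.25, 4.24 ± 0.25 and 4.32 ± 0.26 at 20, 30 and 100 mg/kg/day, and Abcc3 by 2.71 ± 0.32, 2.56 ± 0.32 and 3.03 ± 0.33. Of 10 other NRF2 targets, 6, 6 and 7 were called higher and 1, 0 and 1 lower after 336 h at 20, 30 and 100 mg/kg/day, among the higher the aldehyde reductase Akr7a3 (2.43, 1.54 and 1.80) and the microsomal epoxide hydrolase Ephx1 (1.90, 1.76 and 1.98). The lower one was Cbr1, a carbonyl reductase (-1.51 at 20 mg/kg/day and -2.10 at 100). At 24 h the counts of higher genes were 1, 3 and 5 with R1 at 10, 30 and 100 mg/kg/day and 7 with R2, under which Gsta3 rose by 1.20 only with S82820mRNA_s_at. Of 12 CAR and PXR targets, 4, 7 and 6 were called higher at 24 h at 10, 30 and 100 mg/kg/day, led by Slco1a4, Por and Cyp3a23-3a1, and 11 with R2, against 0.758%, 1.14%, 3.19% and 6.63% of all genes. After 336 h 5, 7 and 5 were higher and 1 was lower (Cyp2c7) at each of 20, 30 and 100 mg/kg/day. Of 9 regulators, Nfe2l2, which encodes NRF2, was called lower at 30 mg/kg/day after 336 h (-0.82 ± 0.24, by 1 of its 2 probe sets). At 24 h, Hnf4a was called higher with R1 at 100 mg/kg/day (0.80 ± 0.20, by 1 of its 3 probe sets). With R2, Arnt (-0.91 ± 0.26) and Cebpa (-0.84 ± 0.21) were called lower, each by 1 of 2 probe sets. In the other R1 groups no regulator was called against vehicle. These lists were chosen with earlier results known and give no independent support to either gene.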

How the data were processed

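Liver RNA was measured on 44 Affymetrix rat arrays, 1 per sample. The authors deposited linear intensity values, made with MAS5 per the submitters' processing notes; its version and scaling are not given in the sources used here. Sorted intensities were identical on all arrays (largest difference 0), so the values had been quantile normalized over studies, and a level is relative within its array. Detection calls were not used. Genes were named from 7006 probe sets with 1 symbol in an annotation table (308 had several, 1426 none); both members matched RefSeq (GRCr8) by gene ID.

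Before taking log2, 2.89 (percentile 20 of all signals) was added, and 6361 probe sets with a group mean of at least 9.17 (percentile 40) were tested. A gene is its probe set with the highest mean. The Gsta3 probe sets reached this level in 11, 11 and 6 of the 11 groups, and those of Gstm5 in 7 and 5, so the dim ones entered through the groups where they were high. Limma 3.58.1 in R 4.3.3 fitted 1 mean per group, with moderated variances, a trend and 33 residual degrees of freedom; p-values were 2-sided and Benjamini-Hochberg adjusted within each of 13 comparisons. The procedure was tested on simulated data. Plots used Python 3.11.15 with matplotlib 3.10.9. The members, lists and tests were chosen with earlier results of these data known. Genes other than the members were named by up to 4 called members of a list, by likeness over group means, or, for a few values given beside a result, after their values were seen. Alternatives were the offset, the filter, median centring, each study alone, no trend, a replicate block, the mean over probe sets and each array left out.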

Additional observations from a re-analysis of the deposited data

Results flagged for a closer look

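With S72506_s_at, 1 array stood far from the rest of its group in 2 of 40 group and probe set combinations checked, where chance alone gives about 1 in 20. In study 4, replicate 5 with R2 at 300 mg/kg/day read 39.2 for Gsta3, with a gap of 0.799 of the range to the next array. In study 3, replicate 3 with R1 at 30 mg/kg/day read 248, with a gap of 0.909 of the range, and it was also the highest array of its group with the other Gsta3 probe sets.

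The effect of R1 at 30 mg/kg/day on Gsta3 differed between 336 h in study 3 and 24 h in study 1, by 2.89 on the log2 scale with S72506_s_at (limma, adjusted p = 0.0088) and by 2.53 with S82820mRNA_s_at (adjusted p = 0.0194). It was not called with rc_AA945082_at (1.49, limma, adjusted p = 0.378). The call of S82820mRNA_s_at was lost when some single arrays were left out.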

How the results depend on the processing

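Over the settings that left all arrays in, Gsta3 and Gstm5 kept their direction and their side of the threshold except as follows. The call of Gsta3 with R2 was lost with study 4 fitted alone (1.20, adjusted p = 0.0711) and with the mean over probe sets (0.67, adjusted p = 0.194). The mean over probe sets turned Gstm5 with R2 from -0.55 to 0.12, and a larger offset moved its values at 336 h to 1.83 at 20 mg/kg/day, 1.23 at 30 and 0.79 at 100, and for the difference between times to 0.98 at both 30 and 100 mg/kg/day. The mean over probe sets moved that difference at 30 mg/kg/day to 0.95. With the replicate block, Gsta3 at 30 mg/kg/day after 336 h gave 3.56 (adjusted p = 1.57e-08) and Gstm5 gave 2.08 (adjusted p = 9.37e-05), and no call of either gene changed. Same-numbered arrays of a study deviated together by mean correlations of -0.017 to 0.051, against -0.014 to 0.005 for differently numbered ones. These small values show no clear pairing by number and cannot exclude it.

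With each array left out in turn, the range was 0.87 to 1.84 for Gsta3 at 100 mg/kg/day and 24 h, 0.93 to 1.60 with R2, 1.98 to 2.98 for the difference between times at 30 mg/kg/day, and -0.025 to 0.67 between the vehicles of studies 4 and 1, where the sign turned without vehicle replicate 2 of study 1. It was 0.38 (without vehicle replicate 2) to 1.07 for Gsta3 at 10 mg/kg/day and 24 h, 0.65 (without R1 replicate 2) to 1.64 (without R1 replicate 3) at 30, 0.13 (without R1 100 replicate 1) to 1.03 (without R1 100 replicate 2) for 100 against 10, and -0.65 (without R1 replicate 2) to -0.02 (without R1 replicate 3) for Gstm5 at 100, none of them called. At 30 mg/kg/day and 336 h, no left-out array ended the call of Gsta3 (3.40 to 3.79, highest adjusted p over all settings 1.23e-06) or of Gstm5 (1.64 to 2.39, highest 0.00518). Counts of genes called ranged from 16 to 50 at 10 mg/kg/day and 24 h (38 with all arrays), 30 to 53 at 30 (49), 131 to 198 at 100 (221), 252 to 378 at 30 mg/kg/day and 336 h (403, lowest without R1 replicate 3), 71 to 167 for 100 against 10 (151, lowest without R1 100 replicate 1), 16 to 34 for the difference between times (35) and 90 to 145 between vehicles (172); the other lowest counts came without vehicle replicate 1 or 2 of study 1. The count of other transferases called at 24 h moved from 0 to 2 at 30 mg/kg/day without vehicle replicate 3 and at 100 without R1 replicate 2. With R2 it moved from 5 to 3 without vehicle replicate 2 or R2 replicate 3, and to 8 without R2 replicate 1. Gstm5 is near the dimmest range of the array, which limits its values. The causes of these shifts were not tested.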
